A study of Mus musculus with 8 samples.

Results

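The last steps of mitochondrial respiration were followed through 45 nuclear genes of complex III, cytochrome c, complex IV and ATP synthase. The genes were every symbol of the array's gene annotation that starts with Uqcr, with Cox and a digit of 4 to 8, or with Atp5. Cyc1 and Cycs were added. This rule goes by name and uses no measured value, but it was chosen with earlier results of these data known. Of these, 44 of the 19933 genes with a transcript cluster of their own (a cluster is the array's gene-level probe set) could be read, and 43 were among the 14950 genes bright enough to test. By complex, the tested genes were 9 of complex III, 1 of cytochrome c, 16 of complex IV and 17 of ATP synthase. Cox7c was not read because each of its 3 clusters is shared with another symbol, and Cox7b2 lay under the filter on dim genes, with 3.06 ± 0.11 in KO hearts and 3.17 ± 0.08 in WT hearts (mean log2 intensity ± SD, n = 4 each).

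The samples were whole hearts of 6-week-old male C57BL/6 mice on normal chow, 4 from mice deficient in HDAC3 (KO, called MCH3-KO by the submitters, a name the labels do not spell out) and 4 from wild type mice (WT). HDAC3 is a histone deacetylase that works inside nuclear receptor corepressor complexes. Neither the cells that lack the gene nor the promoter of any Cre is named in the labels. RNA was read on Affymetrix Mouse Gene 1.0 ST arrays, and the titles number biological replicates, so 1 array stands for 1 mouse. Values are log2 intensities, every difference is KO minus WT, and calls rest on limma's adjusted p under 0.05 over all genes tested. A level of one gene cannot be set against the level of another, because each has its own probes.

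In the inner mitochondrial membrane, complex III passes electrons from ubiquinol to cytochrome c, and complex IV passes them on to oxygen. Both complexes pump protons, and ATP synthase lets the protons return through its ring of c subunits while its F1 head makes ATP. Heart muscle is packed with mitochondria and carries mainly muscle forms of 3 complex IV subunits, the products of Cox6a2, Cox7a1 and Cox8b, in place of the forms used by most other tissues. The catalytic core of complex IV and part of complex III and of ATP synthase are encoded by mitochondrial DNA and belong to no gene named here.

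Hdac3 was 8.57 ± 0.05 in KO hearts and 10.10 ± 0.08 in WT hearts (SD, n = 4 each), a difference of -1.54 (SE 0.05, adjusted p = 9.19e-08). The array medians lay between 54.1 and 56.5 intensity units. Of 12 cardiomyocyte markers, 3 were lower (Ryr2, Myl2 and Nkx2-5) and 0 higher in KO hearts, with a median difference of -0.08. At a mean log2 level of 11 or more, where most of these markers lie, 22.5% of genes were lower, beside 13.9% of all genes. The mean of the cardiomyocyte markers relative to WT was -0.10 to -0.08 on KO arrays and -0.02 to 0.01 on WT arrays. All 19 measured macrophage markers of 20 were higher, with a median difference of 1.28 and array means of 1.01 to 1.27 in KO hearts, against -0.09 to 0.12 in WT hearts. Of 12 fibroblast and endothelial markers 1 (Lum) was higher and 0 lower. Of 8 fast skeletal muscle markers 1 (Acta1) was higher and 1 (Ckm) lower, with WT means of 10.78 and 12.20. Myh2, Tnnt3, Tnni2, Tnnc2, Actn3 and Pvalb had WT means of only 4.70 to 6.13 and did not pass. The list as a whole therefore showed no shared change. Of 4 brown adipocyte and 4 liver markers 0 changed, and of 2 red cell markers 1 (Alas2) was lower. The part of these cell types in the results was not tested, and in whole tissue fewer cells of a type and less RNA per cell cannot be told apart. Replicate 4 of the KO hearts stood apart from the other KO hearts in many of the genes described here, so results are also given without it.

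The genes that fell were 3 of 9 in complex III, 2 of 16 in complex IV and 4 of 17 in ATP synthase. The share in complex IV (12.5%) was no higher than that of all genes (13.9%). Of the 43 genes tested, 9 were lower in KO hearts (20.9%) and 0 were higher, beside 13.9% of all genes lower and 10.8% higher. Among all genes with a mean log2 level of 11 or more, where most of these genes lie, 22.5% were lower, and 6 of the 29 respiratory genes at that level were (20.7%). The share lower was therefore near that of bright genes as a whole. The median difference of the 43 genes was -0.09, against -0.01 for all genes tested and -0.03 for all bright genes, and 33 genes lay below 0 and 10 above. The 9 that fell kept 78.1% to 89.2% of the WT level, and the others differed by -0.21 to 0.18.

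**Figure D1:**
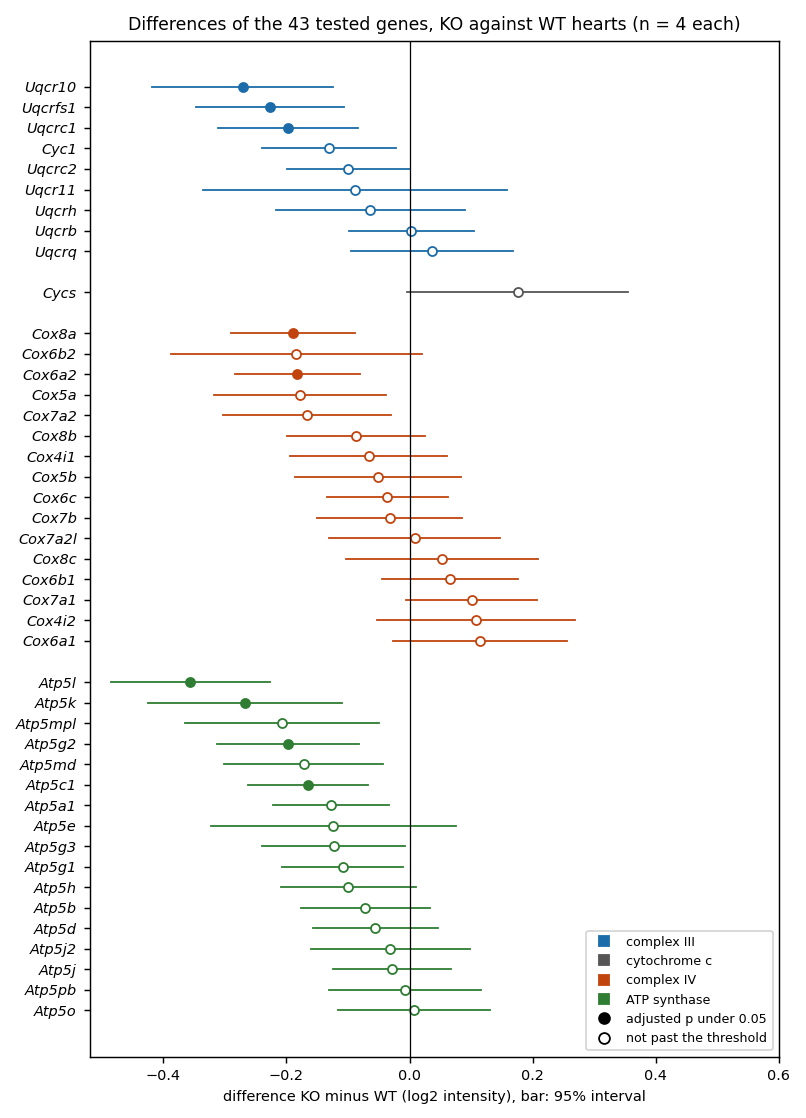
KO minus WT difference of each tested gene (log2 scale, horizontal axis), with its 95% interval, grouped by complex; the 9 genes past an adjusted p of 0.05 are filled circles. The largest fall is that of Atp5l (-0.36), and Cycs lies farthest above 0 (0.18) without passing.

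The count depended on how the spread was estimated and on 1 KO heart. All KO arrays lay below all WT arrays in 15 of the 43 genes, beside 16.8% of all genes, and in 13 of the 29 bright ones, beside 33.1% of all bright genes. Of the 9 genes that fell, 8 were among the 15. With an intensity trend and robust variances 19 of the 43 were lower and 1, Cox7a1, was higher, beside 15.2% of all genes lower and 11.4% higher. Of the bright ones 13 of 29 were lower in that fit, beside 33.8% of all bright genes. Without KO replicate 4 the count was 16, beside 12.8% of all genes, and 8 of the 29 bright ones, beside 22.2% of all bright genes. The genes gained were Atp5e, Atp5g3, Atp5md, Atp5mpl, Cox5a, Cox6b2 and Cox7a2. Both of these lists held all 9 genes called first.

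Complex III had 3 genes lower in KO hearts of 9 tested (33.3%), beside 13.9% of all genes and 22.5% of bright ones. The median difference was -0.10, and the 3 genes came from its redox, core and small subunits. Uqcrfs1 encodes the Rieske iron-sulfur protein, which takes the first electron from ubiquinol, and was 8.56, 8.56, 8.57 and 8.50 in KO hearts, against 8.83, 8.85, 8.66 and 8.75 in WT hearts. Every KO heart was below every WT heart, and KO replicate 4 was the lowest of all. It fell to 85.5% of the WT level, a log2 difference of -0.23 (SE 0.05, adjusted p = 0.0116). Cyc1, the cytochrome c1 subunit that hands electrons to cytochrome c, was also lower on every KO array than on any WT array (11.87 to 11.996 in KO hearts and 12.005 to 12.09 in WT hearts), by a very narrow gap, and its difference of -0.13 (SE 0.05, adjusted p = 0.078) did not pass.

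Both core subunits, which flank the membrane part of complex III on the matrix side, had separate groups. Uqcrc1 measured 11.88, 11.87, 11.85 and 11.90 in KO hearts, against 12.10, 12.17, 12.02 and 12.01 in WT hearts. The KO hearts were nearly alike and lower throughout, and most of the spread was among the WT hearts. Uqcrc1 fell to 87.2% of the WT level, a log2 difference of -0.20 (SE 0.05, adjusted p = 0.0169). Uqcrc2 differed by -0.10 (SE 0.04, adjusted p = 0.138), with 12.48 to 12.58 in KO hearts and 12.63 to 12.65 in WT hearts, and did not pass.

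The 5 small subunit genes were less alike. Uqcr10 was 9.79, 9.74, 9.78 and 10.01 in KO hearts, against 10.18, 10.12, 10.04 and 10.08 in WT hearts. KO replicate 4 came close to the lowest WT heart, yet the groups did not overlap. Uqcr10 fell to 82.8% of the WT level, a log2 difference of -0.27 (SE 0.07, adjusted p = 0.0129), and its difference was -0.33 without KO replicate 4. Uqcrb, the brightest complex III gene on these arrays, was 12.61, 12.60, 12.68 and 12.64 in KO hearts, against 12.65, 12.58, 12.66 and 12.64 in WT hearts. Its groups overlapped throughout, with a difference of 0.0028 (SE 0.05, adjusted p = 0.976). Uqcr11 (-0.09), the hinge protein gene Uqcrh (-0.06) and Uqcrq (0.04) overlapped as well and did not pass.

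Cycs, the gene of the mobile carrier cytochrome c, gave different readings from different clusters. On its brightest cluster it measured 12.81, 12.70, 12.87 and 12.80 in KO hearts, against 12.66, 12.38, 12.71 and 12.74 in WT hearts. WT replicate 2 was far below the other WT hearts, and KO replicate 2 lay among the WT values. The difference of 0.18 (SE 0.08, adjusted p = 0.149) did not pass, and it was 0.09 without WT replicate 2. A dimmer cluster differed by -0.02, and the dimmest, with a mean level of 5.90, differed by -0.31 (adjusted p = 0.0178 where each cluster was its own row).

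Complex IV had 2 genes lower of 16 tested (12.5%), beside 13.9% of all genes and 22.5% of bright ones. The median difference was -0.04. Both were subunits that exist in a muscle and a ubiquitous form, and with so few calls no preference for such subunits can be read. The 7 readable genes grouped as having a single common form had 0 calls in either direction, with differences of -0.18 to 0.07. This group takes in Cox4i1, whose minor form Cox4i2 is described below, and Cox7a2l. Cox5a, a matrix-side subunit, came nearest with -0.18 (SE 0.06, adjusted p = 0.0635), and without KO replicate 4 it was -0.23 (adjusted p = 0.0136). Cox6c, the brightest complex IV gene, was 13.30, 13.26, 13.32 and 13.34 in KO hearts, against 13.37, 13.33, 13.33 and 13.34 in WT hearts. The groups overlapped, and the difference was -0.04 (SE 0.04, adjusted p = 0.621). Cox5b (-0.05), Cox7b (-0.03), the supercomplex factor gene Cox7a2l (0.01) and Cox6b1 (0.07) did not pass either. The testis forms Cox6b2 (-0.18) and Cox8c (0.05) had low levels and did not pass.

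**Figure D2:**
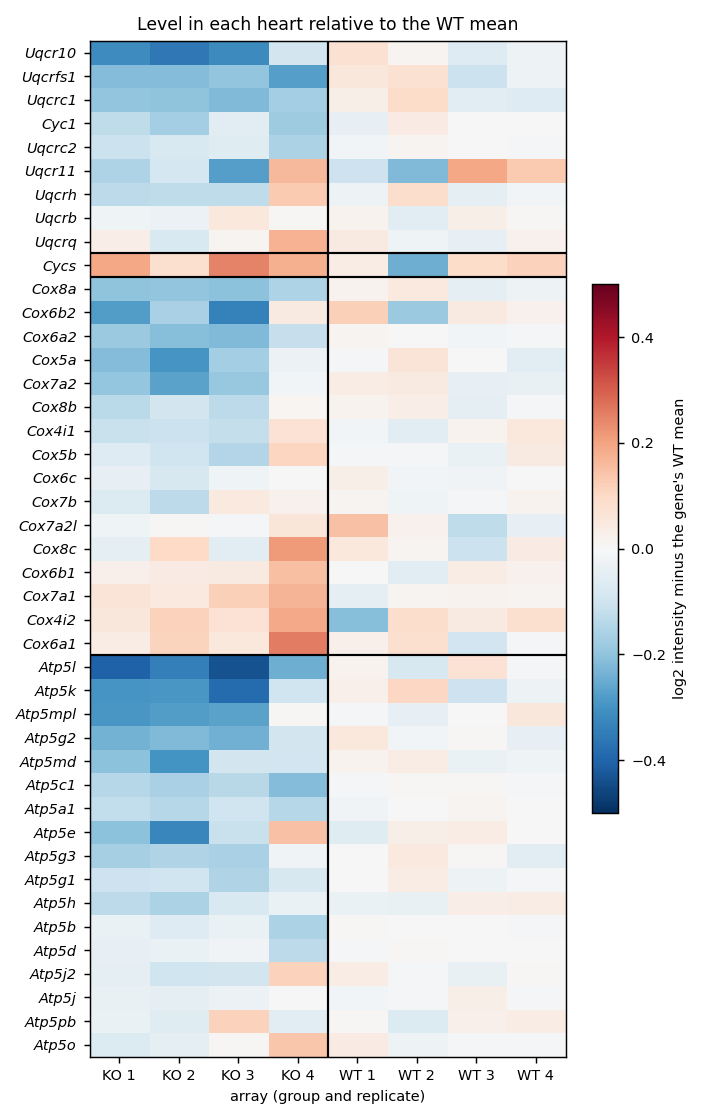
Level of each gene on each array relative to its own WT mean (log2 scale, colour), with KO arrays left of WT arrays and genes grouped by complex. KO replicate 4 is higher (less blue or more red) than the other KO arrays in most of complex IV and in the small subunits of complex III, while 4 of the 5 F1 genes are lowest on it among the KO arrays.

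The balance between the muscle and the ubiquitous form of a complex IV subunit shifted in all 3 such pairs. It moved away from the muscle form for Cox6a and toward it for Cox7a and Cox8. The muscle forms had mean log2 intensities of 12.53 to 12.81, against 8.71 to 11.14 for the ubiquitous forms. Over all genes the SD of differences was 0.18 at levels of 12 to 13 and 0.27 to 0.30 between 8 and 12. The part of this narrowing in the balances was not tested. For the Cox6a subunit, the muscle form Cox6a2 was 12.44, 12.41, 12.40 and 12.51 in KO hearts, against 12.64, 12.63, 12.61 and 12.62 in WT hearts. All 4 KO hearts were below all WT hearts. Cox6a2 fell to 88.1% of the WT level, a log2 difference of -0.18 (SE 0.05, adjusted p = 0.0147). The ubiquitous form Cox6a1 was 8.69, 8.76, 8.70 and 8.91 in KO hearts, against 8.68, 8.73, 8.55 and 8.64 in WT hearts, and KO replicate 4 was the highest of the 8 hearts. Its groups overlapped, and its difference of 0.11 (SE 0.06, adjusted p = 0.231) did not pass. Within each array, Cox6a2 minus Cox6a1 was 3.68 ± 0.06 in KO hearts and 3.97 ± 0.07 in WT hearts (SD, n = 4 each). The balance was shifted by -0.30 toward the ubiquitous form (SE 0.05, 95% interval -0.41 to -0.18, adjusted p = 0.0381 over the 4 pairs, two-sided exact permutation test over arrays).

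The Cox7a pair went the other way. The muscle form Cox7a1 was 12.82, 12.81, 12.88 and 12.93 in KO hearts, against 12.72, 12.77, 12.78 and 12.77 in WT hearts. Here every KO heart was above every WT heart, although the difference of 0.10 (SE 0.05, adjusted p = 0.162) did not pass. Cox7a1 was past the threshold with an intensity trend and robust variances (adjusted p = 0.0314), and the alternatives as a whole gave 0.0314 to 0.848. The ubiquitous form Cox7a2 was 10.12, 10.05, 10.13 and 10.31 in KO hearts, against 10.36, 10.36, 10.28 and 10.28 in WT hearts. KO replicates 1 to 3 were below all WT hearts and KO replicate 4 was among them, and the difference of -0.17 (SE 0.06, adjusted p = 0.0759) did not pass, though it did without KO replicate 4 (-0.22, adjusted p = 0.0126). Cox7a1 minus Cox7a2 was 2.71 ± 0.06 in KO hearts and 2.44 ± 0.07 in WT hearts (SD, n = 4 each). This balance was shifted by 0.27 toward the muscle form (SE 0.05, 95% interval 0.16 to 0.38, exact permutation adjusted p = 0.0381). With quantile normalisation it was 0.17, and the difference of Cox7a1 alone was 0.02.

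For Cox8 the fall was in the ubiquitous form. Cox8a was 11.04, 11.04, 11.03 and 11.09 in KO hearts, against 11.26, 11.29, 11.20 and 11.22 in WT hearts. The KO hearts were lower throughout and nearly alike. Cox8a fell to 87.7% of the WT level, a log2 difference of -0.19 (SE 0.05, adjusted p = 0.0117). The muscle form Cox8b was 12.64, 12.68, 12.64 and 12.78 in KO hearts, against 12.79, 12.80, 12.73 and 12.77 in WT hearts, with KO replicate 4 among the WT hearts, and its difference of -0.09 (SE 0.05, adjusted p = 0.255) did not pass. Cox8b minus Cox8a was 1.63 ± 0.04 in KO hearts and 1.53 ± 0.01 in WT hearts, a shift of 0.10 toward the muscle form (SE 0.02, 95% interval 0.05 to 0.16, exact permutation adjusted p = 0.0381, n = 4 each), and 0.06 with quantile normalisation.

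The pair of Cox4, whose second form is known from lung and from low oxygen, was not separated. Cox4i1 was 10.99, 10.99, 10.98 and 11.17 in KO hearts, against 11.08, 11.04, 11.11 and 11.15 in WT hearts, with a difference of -0.07 (SE 0.06, adjusted p = 0.46). Cox4i2 was 7.58, 7.63, 7.59 and 7.71 in KO hearts, against 7.31, 7.61, 7.57 and 7.60 in WT hearts, with a difference of 0.11 (SE 0.07, adjusted p = 0.331). The lowest of the Cox4i2 values was WT replicate 1, and the groups overlapped in both genes. Their balance was 3.40 ± 0.04 in KO hearts and 3.58 ± 0.14 in WT hearts, a difference of -0.17 whose 95% interval of -0.36 to 0.01 includes 0 (exact permutation adjusted p = 0.0571, n = 4 each). It passed with quantile normalisation and without WT replicate 2 (-0.22, exact permutation adjusted p = 0.0286 in both). The smallest p that 4 arrays against 4 allow is 0.0286, and the separated pairs reached it.

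**Figure D3:**
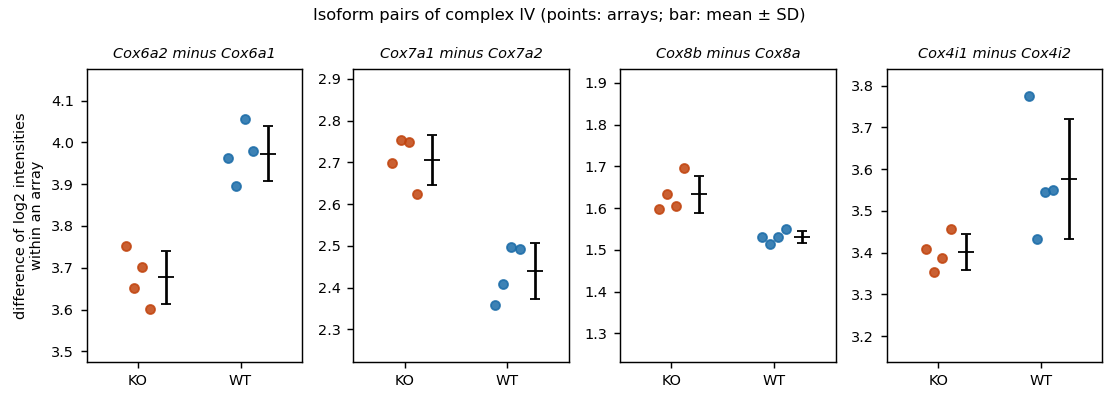
Within-array log2 difference between the 2 forms of each complex IV subunit, 1 point per array with the group mean ± SD, KO left of WT in each panel. KO points lie below WT points for Cox6a2 minus Cox6a1 and above them for Cox7a1 minus Cox7a2 and Cox8b minus Cox8a, and the groups overlap for Cox4i1 minus Cox4i2.

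Promoters of Cox6a1 and of the Cox7a and Cox8 forms are shown because the members of these pairs parted. No promoter entry was found for Cox6a2, the muscle form that fell. Each sequence is the 250 bases before the first start listed for the gene in RefSeq's GRCm38.p6, read 5′ to 3′ on the gene's strand, with every CG in capitals. The Cox6a1 window lies at chr5:115348959-115349208, minus strand, that of Cox7a1 at chr7:30183921-30184170, plus strand, that of Cox7a2 at chr9:79759854-79760103, minus strand, that of Cox8b at chr7:140900447-140900696, minus strand and that of Cox8a at chr19:7217617-7217866, minus strand.
Cox6a1: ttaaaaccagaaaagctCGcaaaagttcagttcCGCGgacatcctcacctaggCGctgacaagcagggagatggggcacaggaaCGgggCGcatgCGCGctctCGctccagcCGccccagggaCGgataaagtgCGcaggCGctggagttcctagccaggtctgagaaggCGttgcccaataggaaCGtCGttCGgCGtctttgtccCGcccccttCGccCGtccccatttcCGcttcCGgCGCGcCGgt
Cox7a1: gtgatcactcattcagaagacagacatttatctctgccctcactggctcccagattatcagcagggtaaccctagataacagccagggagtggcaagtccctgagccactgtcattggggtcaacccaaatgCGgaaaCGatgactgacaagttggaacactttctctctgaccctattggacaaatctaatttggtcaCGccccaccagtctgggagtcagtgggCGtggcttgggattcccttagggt
Cox7a2: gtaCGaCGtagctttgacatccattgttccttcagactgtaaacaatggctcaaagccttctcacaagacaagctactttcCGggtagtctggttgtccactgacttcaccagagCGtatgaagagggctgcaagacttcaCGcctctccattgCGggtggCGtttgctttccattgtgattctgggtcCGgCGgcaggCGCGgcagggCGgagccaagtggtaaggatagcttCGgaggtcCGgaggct
Cox8b: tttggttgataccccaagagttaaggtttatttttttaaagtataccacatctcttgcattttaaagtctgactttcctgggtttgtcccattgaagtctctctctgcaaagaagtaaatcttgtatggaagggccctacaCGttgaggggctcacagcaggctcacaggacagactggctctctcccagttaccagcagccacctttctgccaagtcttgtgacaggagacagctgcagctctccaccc
Cox8a: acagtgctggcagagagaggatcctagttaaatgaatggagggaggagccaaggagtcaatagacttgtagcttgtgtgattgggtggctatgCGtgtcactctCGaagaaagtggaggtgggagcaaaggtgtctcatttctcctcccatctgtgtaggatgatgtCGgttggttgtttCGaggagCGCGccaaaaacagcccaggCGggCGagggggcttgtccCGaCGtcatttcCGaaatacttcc
The muscle forms had few CG pairs, 4 for Cox7a1 and 1 for Cox8b, and the ubiquitous forms had 26 for Cox6a1, 14 for Cox7a2 and 11 for Cox8a. The median over 34 of the 45 genes whose promoter was found was 14, against 6 over 27025 mouse promoters of the same length. The 2 muscle forms shown therefore lay below both medians, and the ubiquitous form Cox8a lay below the first of them as well. This is a description of the letters and not of what binds there.

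ATP synthase had 4 genes lower of 17 tested (23.5%), beside 13.9% of all genes and 22.5% of bright ones. The median difference was -0.12. Of the 17 genes, 16 lay below 0, as did 7744 of all 14950 genes tested and 174 of the 311 bright ones. In the F1 head, which holds the catalytic sites, Atp5c1 encodes the central gamma subunit that turns inside it. Atp5c1 was 12.16, 12.14, 12.16 and 12.09 in KO hearts, against 12.30, 12.31, 12.31 and 12.30 in WT hearts. WT hearts were nearly alike, and every KO heart was lower, KO replicate 4 most of all. Atp5c1 fell to 89.2% of the WT level, a log2 difference of -0.16 (SE 0.04, adjusted p = 0.0195), and with the replicate number as a block its adjusted p was 0.0521. The catalytic beta subunit Atp5b (-0.07, adjusted p = 0.319), the alpha subunit Atp5a1 (-0.13, adjusted p = 0.0511) and the delta subunit Atp5d (-0.06, adjusted p = 0.441) did not pass, though KO and WT arrays were separate in each. Atp5d, the brightest gene of the complex, was 13.19, 13.20, 13.21 and 13.10 in KO hearts, against 13.22, 13.23, 13.23 and 13.22 in WT hearts, so its separation was very narrow. The epsilon subunit gene Atp5e (-0.12) overlapped, with KO replicate 4 the highest of all hearts.

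Atp5g1, Atp5g2 and Atp5g3 make the same mature c subunit, which forms the rotating ring in the membrane. Atp5g2 was 11.63, 11.65, 11.63 and 11.78 in KO hearts, against 11.92, 11.85, 11.87 and 11.83 in WT hearts. KO replicate 4 stood above the other KO hearts but below the lowest WT heart. Atp5g2 fell to 87.2% of the WT level, a log2 difference of -0.20 (SE 0.05, adjusted p = 0.0182), and it no longer passed without KO replicate 1, 2 or 3 or WT replicate 1 (adjusted p up to 0.0608). Atp5g1 (-0.11, adjusted p = 0.103) and Atp5g3 (-0.12, adjusted p = 0.118) did not pass. The 4 genes of the peripheral stalk, which holds the head still, had 0 calls and differences of -0.10 to 0.01, among them Atp5h (-0.10), Atp5j (-0.03), Atp5pb (-0.01) and Atp5o (0.01).

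The small membrane subunits held the largest fall. Atp5l encodes subunit g, which with subunit e is known from the contact between ATP synthase dimers. It was 10.998, 11.06, 10.97 and 11.16 in KO hearts, against 11.42, 11.32, 11.48 and 11.39 in WT hearts. No KO heart reached the lowest WT heart. Atp5l fell to 78.1% of the WT level, a log2 difference of -0.36 (SE 0.06, adjusted p = 0.00146). Atp5k, the gene of subunit e, was 8.61, 8.62, 8.52 and 8.81 in KO hearts, against 8.93, 9.01, 8.80 and 8.88 in WT hearts. KO replicate 4 was just above WT replicate 3, so the groups touched. Atp5k fell to 83.1% of the WT level, a log2 difference of -0.27 (SE 0.07, adjusted p = 0.0192), and it no longer passed without KO replicate 1, 2 or 3 (adjusted p up to 0.0557). Atp5md (-0.17, adjusted p = 0.0538), Atp5mpl (-0.21, adjusted p = 0.0569) and Atp5j2 (-0.03, adjusted p = 0.755) did not pass. Without KO replicate 4, Atp5mpl was -0.28 (adjusted p = 0.00264).

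The promoters of the 3 membrane and ring genes that fell are shown with the letter motifs found in them in capitals. The search covered both strands. For estrogen-related receptors the letters were AAGGTCA. The core of NRF1 sites was CGCANGCG. GABP and other ETS factors were searched as CCGGAAG. For YY1 the letters were ATGGCGG. The TATA box was TATAAA. The matches do not overlap each other in these windows. The Atp5l window lies at chr9:44920743-44920992, minus strand, that of Atp5k at chr5:108434400-108434649, minus strand and that of Atp5g2 at chr15:102671048-102671297, minus strand, all in GRCm38.p6.
Atp5l: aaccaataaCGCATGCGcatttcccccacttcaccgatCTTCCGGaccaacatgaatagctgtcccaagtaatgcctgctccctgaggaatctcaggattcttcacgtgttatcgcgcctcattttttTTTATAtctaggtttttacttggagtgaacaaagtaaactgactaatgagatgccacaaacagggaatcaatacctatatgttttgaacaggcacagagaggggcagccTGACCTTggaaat
Atp5k: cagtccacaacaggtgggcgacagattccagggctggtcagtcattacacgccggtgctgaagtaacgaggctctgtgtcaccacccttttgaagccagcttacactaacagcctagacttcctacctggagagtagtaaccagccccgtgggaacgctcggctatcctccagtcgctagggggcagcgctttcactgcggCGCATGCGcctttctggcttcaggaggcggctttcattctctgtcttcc
Atp5g2: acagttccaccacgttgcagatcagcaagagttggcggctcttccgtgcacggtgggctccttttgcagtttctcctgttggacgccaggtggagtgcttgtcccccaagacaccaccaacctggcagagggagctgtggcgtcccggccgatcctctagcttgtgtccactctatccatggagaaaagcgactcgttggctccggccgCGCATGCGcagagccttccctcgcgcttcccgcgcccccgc
Each holds an NRF1 core, 241 bases before the start in Atp5l, 49 in Atp5k and 41 in Atp5g2, and Atp5l also holds the receptor, ETS and TATA letters. Over the 34 promoters found, counting the first start listed for each gene, 7 held an NRF1 core (20.6%), against 6.94% of all mouse promoters. The ETS letters were in 7 (20.6%), against 7.05%. Both sets of letters contain CG, and the median number of CG pairs was 14 in these promoters and 6 in all promoters. The shares were not matched for CG pairs, so the part of CG content in them was not tested. The receptor letters were in 2 (5.88%, against 4.05%), the TATA letters in 3 (8.82%, against 12.97%) and the YY1 letters in 0 (against 2.19%). Of the 8 genes that fell and had a promoter entry, 3 held an NRF1 core, and these are the 3 shown. Uqcrfs1, Uqcrc1, Uqcr10, Cox8a and Atp5c1 held none before their first listed start. Of the 24 that did not pass, 4 held one. Atp5c1, Atp5d and Atp5j have a second listed start. With every start counted, 9 of the 34 held an NRF1 core (26.5%, against 7.65% of all genes), 8 the ETS letters (23.5%, against 7.83%) and 1, Atp5j, the YY1 letters (2.94%, against 2.58%), and the NRF1 core was in 4 of the 8 that fell and 5 of the 24 that did not pass.

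The complexes can be set side by side by their means on each array. The mean of the complex III genes relative to WT was -0.15 to -0.13 in KO replicates 1 to 3 and -0.04 in KO replicate 4, against -0.01 to 0.00 in WT hearts. For ATP synthase it was -0.17 to -0.13 and -0.06, against -0.0037 to 0.0030 in WT hearts. For complex IV it was -0.09 to -0.08 in KO replicates 1 to 3 and 0.06 in KO replicate 4, against -0.02 to 0.01 in WT hearts. Complex III and ATP synthase thus had every KO heart below every WT heart, and complex IV did not. Whether the complexes differ from each other was not tested.

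KO replicate 4 had the highest value of the KO hearts in 31 of the 43 genes (72.1%), against 28.9% of all genes tested and 29.3% of bright genes. It was likewise the highest in 26 of 35 genes taken as complex I (74.3%), whose mean relative to WT was 0.03 on it and -0.12 to -0.08 in the other KO hearts. These were the genes named Ndufa, Ndufb, Ndufc, Ndufs or Ndufv. The name rule also takes in Ndufa4 and Ndufa4l2, which need not be complex I subunits. In the 43 genes it lay above the mean of the other KO hearts by a median of 0.11, with a range of -0.11 to 0.36, while the median over all genes was -0.02. The parts were not alike in this: on this array the small complex III subunits averaged 0.08 above WT, and the core (-0.16), the redox subunits (-0.23) and the F1 head (-0.10) were below it. Macrophage markers were also less raised on it, at 1.01 against 1.18 to 1.27 in the other KO hearts, while cardiomyocyte markers were at -0.09, against -0.10 to -0.08. The part of these in the values of KO replicate 4 was not tested.

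**Figure D4:**
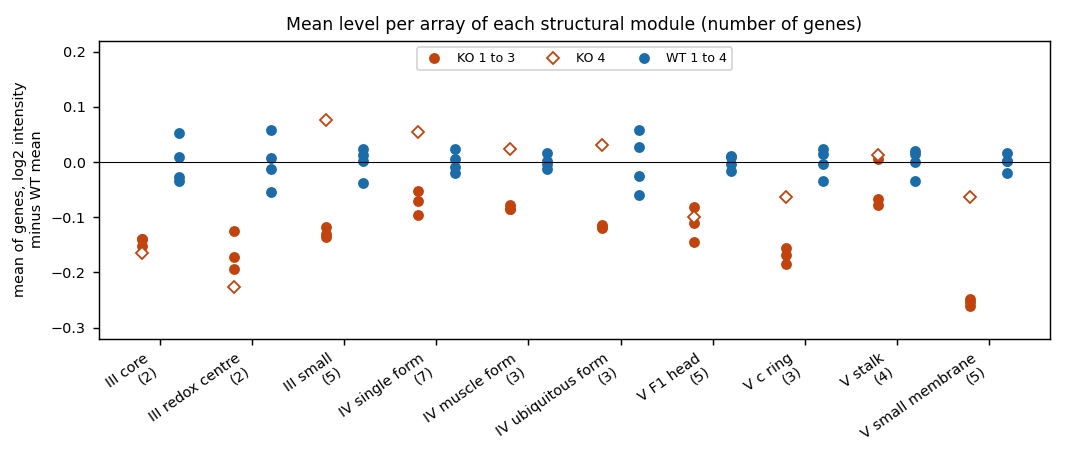
Mean level of the genes of each structural group on each array, relative to the WT mean (log2 scale), KO arrays left of WT arrays and KO replicate 4 as an open diamond; V stands for ATP synthase. In the membrane subunits of ATP synthase KO replicates 1 to 3 lie at -0.26 to -0.25 and KO replicate 4 at -0.06, while the 2 core genes of complex III are at -0.16 to -0.14 in all KO hearts.

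Genes read by several clusters could be compared between clusters, which were read on the same hearts and are not independent. Of 13 such genes with 34 clusters, 10 had differences of 1 sign throughout, and the exceptions were Cycs, Cox7a2l and Uqcrb. The dimmest Atp5h cluster (mean level 3.98) is counted here although it lay under the filter on dim genes. Atp5l was lower on all 5 of its clusters (-0.36, -0.35, -0.31, -0.20 and -0.14), and 3 of them passed. The dimmer cluster of Atp5g1 differed by -0.63 (adjusted p = 0.00395), against -0.11 on the bright one. The clusters of Atp5g2 differed by -0.20, -0.39 and -0.28. Whether pseudogenes or other close copies add to these signals was not tested. The spread of differences also narrowed with brightness: its SD over all genes was 0.27 at log2 levels of 11 to 12, 0.18 at 12 to 13 and 0.05 at 13 to 14, where Atp5b, Atp5d, Atp5g1 and Cox6c lie.

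**Figure D5:**
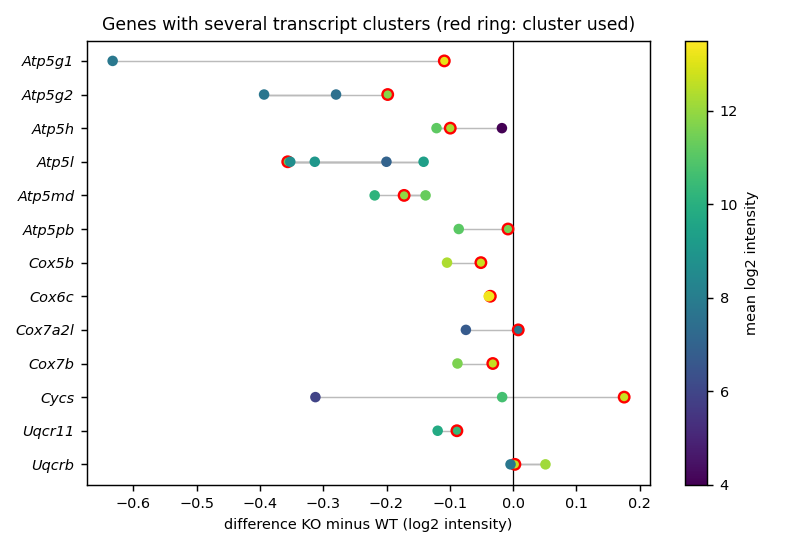
KO minus WT difference (log2 scale) of every cluster of the 13 genes with several clusters (horizontal axis, 1 row per gene), with the cluster's mean log2 intensity as colour and a ring around the cluster used. The 5 Atp5l clusters all lie below 0, and the Cycs clusters lie at 0.18, -0.02 and -0.31.

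Genes of the machinery around these complexes were also read. A list of assembly factors and related genes of complex III, complex IV and ATP synthase had 32 genes tested. Of these, 10 were lower (31.2%) and 1 was higher, with a median of -0.10. Over all genes 13.9% were lower and 10.8% higher. The list was taken broadly and also held Lrpprc, Slirp, Taco1 and Atpif1, of which Lrpprc and Taco1 were among those lower. Higd2a, a factor of complex IV and of supercomplexes, fell by 0.74 on the log2 scale (adjusted p = 0.00019), Cmc2 fell by 0.38 (adjusted p = 0.00137) and Cox15, needed for heme a, fell by 0.38 (adjusted p = 0.00159). The copper chaperone Cox17 rose by 0.35 (adjusted p = 0.0429). Upstream in the chain, complex II had 3 of 4 genes lower, Sdha (-0.26), Sdhb (-0.26) and Sdhc (-0.21). Complex I, by the same name rule, had 7 of 35 lower, led by Ndufs1 (-0.38), and 1 higher, Ndufa5 (0.42). The median was -0.08, close to the -0.09 of the genes described here. The share of complex I genes lower lay between that of all genes (13.9%) and that of bright genes (22.5%).

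Among 14 tested regulators of respiratory genes, 2 were lower and 2 higher (14.3% each way), near the shares of all genes (13.9% lower and 10.8% higher). Tfam, which packages mitochondrial DNA and takes part in starting its transcription, rose by 0.43 (adjusted p = 0.0183). Its partner Tfb2m rose by 0.28 (adjusted p = 0.0205). The mitochondrial RNA polymerase Polrmt fell by 0.21 (adjusted p = 0.0159) and the coactivator Ppargc1b fell by 0.33 (adjusted p = 0.019). Ppargc1a (0.22, adjusted p = 0.19) and the receptor Esrra (0.02, adjusted p = 0.853) did not pass. COX2, the mitochondrially encoded complex IV subunit and the only such gene with a cluster here, was 12.87 ± 0.08 in KO hearts and 12.89 ± 0.07 in WT hearts (SD, n = 4 each), a difference of -0.02 (adjusted p = 0.883).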

How the data were processed

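Total RNA from 4 KO and 4 WT hearts was hybridised to 1 array each. Hearts were frozen in liquid nitrogen and extracted with Trizol, per the labels' protocols. The authors deposited 1 intensity per cluster and array, on a linear scale as their range showed, made with Partek and RMA per the submitters' processing notes. The values rest on a genome build not given in the sources used here. Detection calls and scan dates were not used, so batches could not be examined.

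Of 27541 clusters, 21631 had 1 symbol, and each gene was read from its brightest. The dimmest genes, below the 25th percentile over all 8 arrays (log2 4.50), were removed, 4983 in number. The test on log2 values was limma's lmFit with eBayes (version 3.58.1, R 4.3.3), two-sided, with no covariate and Benjamini-Hochberg adjustment over 14950 genes at 0.05, after testing on simulated data. Isoform balances were compared by exact permutation over 70 assignments, adjusted over 4 pairs. Complex summaries carry no test. Figures used matplotlib 3.10.9 in Python 3.11.15. The number of arrays limits precision.

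Values on all arrays are given for genes past the threshold, for both members of each pair and for the largest and brightest of each complex. From other lists at most 3 genes were named by smallest p, and Cox17, Tfb2m, Ppargc1a, Esrra and COX2 were named after their values were seen. The genes, lists and tests were chosen with earlier results of these data known. Alternatives were other scalings, filters, variance models and cluster rules, array weights, a replicate block and leaving out each array.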

Additional observations from a re-analysis of the deposited data

Results flagged for a closer look

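The 44 genes, the means of 3 complexes and the 4 isoform balances were each examined in both groups of 4 hearts for 1 heart far from the other 3. Of 102 such groups, 14 held one (13.7%), and 9 of the 14 were KO replicate 4. Chance gives about 1 in 20 for independent groups, and these genes were read on the same hearts and are not independent.

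In ATP synthase, KO replicate 4 was at 11.78 for Atp5g2 (11.63 to 11.65 in the other KO hearts), 12.40 for Atp5g3 (12.25 to 12.27) and 10.14 for Atp5mpl (9.84 to 9.86). In complex IV it was at 11.17 for Cox4i1 (10.98 to 10.99) and 11.73 for Cox6b1 (11.60 to 11.62), and the mean of the complex IV genes relative to WT was 0.062 on it (-0.09 to -0.08). In complex III it was at 10.01 for Uqcr10 (9.74 to 9.79) and 11.57 for Uqcrh (11.31 to 11.32), with a complex mean of -0.044 (-0.15 to -0.13). In all of these KO replicate 4 was the highest KO heart.

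The remaining hearts were KO replicate 3 for Atp5pb (11.69, against 11.51 to 11.54), WT replicate 3 for Atp5j (12.26, against 12.22 to 12.23) and for the complex III mean (-0.010, against 0.00 in the others), and WT replicate 1 for Cox4i2 (7.31, against 7.57 to 7.61) and Cox7a1 (12.72, against 12.77 to 12.78).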

How the results depend on the processing

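The number of genes lower in KO hearts was 9, and it was 15 with genes under the 50th percentile left out, 19 with an intensity trend and robust variances, 18 with array weights and 14 of 63 clusters where each cluster was its own row (an alternative chosen after seeing the data). It ranged from 7 to 16 when single arrays were left out, with 16 without KO replicate 4 and 7 without KO replicate 1 or 2. The number higher was 1 with an intensity trend, against 0. Atp5g2 (adjusted p 0.00201 to 0.0608 over the alternatives), Atp5k (0.00459 to 0.0557) and Atp5c1 (0.000681 to 0.0521) were each lost under at least 1 setting, and the other 6 passed in all. The medians kept their sign, at -0.13 to -0.09 for complex III, -0.08 to -0.03 for complex IV and -0.14 to -0.10 for ATP synthase. The Cox4i1 minus Cox4i2 balance was -0.22 with quantile normalisation and -0.22 to -0.11 without single arrays, and passed in the first of these and without WT replicate 2 (adjusted p = 0.0286 in both, exact permutation). Quantile normalisation also gave 0.06 for Cox8b minus Cox8a (against 0.10) and 0.17 for Cox7a1 minus Cox7a2 (against 0.27), both still past the threshold, and 0.02 for Cox7a1 alone (against 0.10). Uqcrb changed sign: -0.0088 with arrays centred on their median, -0.0018 with quantile normalisation, -0.018 with array weights and -0.015 to 0.013 without single arrays. Cycs was -0.051 with its clusters averaged. The cause of these shifts was not tested. Over all genes 1658 to 2352 were lower and 1213 to 2177 higher.

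With the replicate number as a block, 9 of the respiratory genes were lower, 8 of them shared with the fit without it, and Atp5c1 was lost (adjusted p = 0.0521). Correlations of same-numbered hearts' deviations were -0.04, 0.03, -0.04 and 0.08, and those of unlike-numbered hearts ranged from -0.23 to 0.23. With so few hearts these values cannot tell whether the numbers pair the samples.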
